A study of Mus musculus with 6 samples.

Results

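Aquaporins were analysed in the whole epididymis of adult WT and Ocln-KO mice. They comprised the 9 genes Aqp1, Aqp2, Aqp3, Aqp4, Aqp5, Aqp7, Aqp8, Aqp9 and Aqp11, chosen by symbol from the 57127 genes of the count table. Both genotypes were on a C57BL/6 background. The WT group (wild type) and the Ocln-KO group (Ocln-/-, a null genotype of the tight junction protein occludin in the whole animal, bred from heterozygous parents) each had 3 libraries of rRNA-depleted RNA. No treatment is named in the records. Each library held the RNA of an entire organ, so for all genes described below fewer cells of a type and less RNA per cell cannot be told apart.

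Aquaporins are membrane pores through which water crosses cells along osmotic gradients. The classical channels carry mainly water, whereas the aquaglyceroporins also pass glycerol and other small solutes, and another branch resides in intracellular membranes. In the epididymis, water leaves the lumen together with ions and the sperm are concentrated, and Aqp9 of the principal cells is the best known channel of this epithelium.

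The channels share a signature, a pair of boxes coding for Asn-Pro-Ala that meet in the middle of the pore, and its coding sequence is shown because it is the part of the gene that defines the family. The coding sequences of the GENCODE M21 transcripts were searched in frame for AACCCNGCN or AATCCNGCN. Both boxes were present in 7 of the 9 genes, 1 box in Aqp11 and none in Aqp7, for which these letters were not found. The starts of both boxes lay 348 bases apart in the classical channels Aqp1, Aqp2, Aqp4 and Aqp5, 354 bases apart in Aqp8, and 396 bases apart in the aquaglyceroporins Aqp3 and Aqp9. The boxes of the 3 most abundant genes and of Aqp5 are given below from the coding strand of GRCm38, 5′ to 3′, with the box in capitals and 9 bases of coding exon on either side. The windows of Aqp9 and Aqp11 lie on the minus strand and the others on the plus strand.
Aqp9 first box, exon 3, chr9:71132732-71132758: ggccacatcAACCCAGCGgtgtctttt
Aqp9 second box, exon 5, chr9:71122841-71122867: tgtgccatgAACCCTGCTcgagacctc
Aqp1 first box, exon 1, chr6:55336707-55336733: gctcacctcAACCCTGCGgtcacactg
Aqp1 second box, exon 3, chr6:55345828-55345854: tgcggtatcAACCCTGCCcggtcattt
Aqp5 first box, exon 2, chr15:99591467-99591493: ggccacatcAATCCGGCCattactctg
Aqp5 second box, exon 4, chr15:99593261-99593287: tgttccatgAACCCAGCCcgatctttc
Aqp11 box, exon 2, chr7:97729044-97729070: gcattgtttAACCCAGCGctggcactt

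The libraries held between 30646424 and 38870780 counts. The targeted gene Ocln stood at 85.5 ± 6.51 CPM in the WT libraries and was reduced to 15.1 ± 0.231 CPM in those of Ocln-KO (SD, n = 3 each, log2 fold change -2.50, edgeR adjusted p = 0.000108). CPM are counts per 1000000 counts of the TMM-scaled library. The epididymal gene Rnase9 was abundant, at 2680 CPM in WT, whereas Lcn9 and Cst12, which are known from the same proximal region, had 5 and 0 counts over the 3 WT libraries, and the endothelial gene Cldn5 had 0. A low count in this table is therefore read only as a low count. On the first principal component, which held 47.2% of the variance, Ocln-KO replicate 3 lay at 86.3, far from the other Ocln-KO libraries at 17.7 and 29.1. Results of aquaporin genes that rest on it are given with and without it, as are those of the called glycerol handling genes.

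The genotypes were compared across 19691 genes with edgeR's quasi-likelihood test and Benjamini-Hochberg adjustment, and a gene was called at an adjusted p under 0.05. Of the 9 aquaporin genes, 7 were tested, of which 1 fell (Aqp9) and 1 rose (Aqp5) in Ocln-KO. Of all genes tested, 8.95% were called, with 5.04% lower and 3.91% higher. Aqp5 also passed the fold change threshold of 2, as did 3.19% of all genes tested, 1.49% being higher and 1.7% lower. Aqp1, Aqp7 and Aqp11 passed the count filter in both genotypes and were not called. Aqp4 and Aqp8 entered the test through their WT libraries alone, and Aqp2 and Aqp3 had too few counts to be tested.

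**Figure D1:**
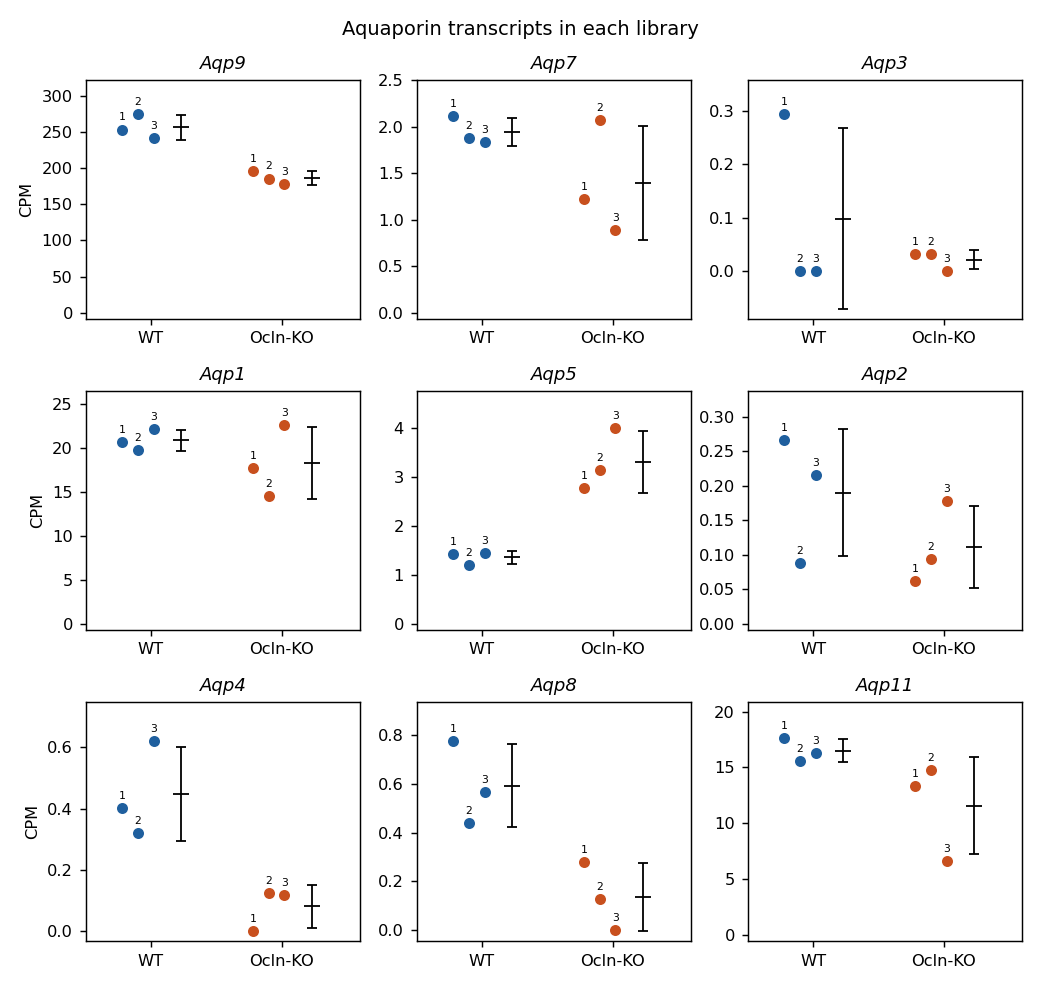
CPM of the 9 aquaporin genes (vertical axes, each gene on its own scale) in the WT (blue) and Ocln-KO (orange) libraries, numbered by replicate, with the mean and SD beside the points (n = 3 each). The genotypes are apart for Aqp9, Aqp5, Aqp4, Aqp8 and Aqp11, as they are for 36.3% of all genes tested. Aqp4 and Aqp8 passed the count filter through WT alone, so a WT excess was built into their selection. Ocln-KO replicate 3 is the lowest library for Aqp11 at 6.66 CPM.

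The aquaglyceroporins were led by Aqp9, the apical channel of principal cells (chromosome 9, 71110659 to 71167849). It had 254, 276 and 242 CPM in WT replicates 1 to 3 and 197, 186 and 178 CPM in the Ocln-KO replicates. All WT values exceeded all Ocln-KO values, and of all genes tested 36.3% had no overlap between the genotypes, 19.4% with Ocln-KO lower and 16.9% with Ocln-KO higher. Aqp9 fell from 258 ± 17.3 to 187 ± 9.59 CPM (SD, n = 3 each), which is 0.727 times the WT level with a 95% interval from 0.629 to 0.84 (log2 fold change -0.46, standard error 0.09, edgeR adjusted p = 0.028). The size of the fall held within -0.50 and -0.38 on the log2 scale over 13 alternatives, whereas the call did not hold in each. Without WT replicates 1, 2 and 3 the edgeR adjusted p of Aqp9 was 0.109, 0.0886 and 0.0827, and without Ocln-KO replicate 2 it was 0.0752. Scaled by total counts alone, the log2 fold change was -0.38 (edgeR adjusted p = 0.0479). The summed CPM of 6 genes of the acid-secreting clear cells was 84.6 to 106 in the WT libraries and 42.2 to 52.9 in the Ocln-KO libraries, and 4 of the 5 tested genes fell. That of 3 distal epididymal genes was 15000 to 19500 and 5000 to 11300, mostly from Crisp1, and none of the 3 was called by edgeR although all 3 had an unadjusted p under 0.05, with Crisp1 and Cd52 at log2 fold changes of -0.92 and -1.24 and Plac8 at 0.52 (edgeR adjusted p = 0.0855, 0.127 and 0.143). The sums of 8 initial segment and caput genes, mostly from Rnase9, overlapped, at 2260 to 3310 CPM in WT and 1790 to 3730 CPM in Ocln-KO. None of the 3 tested genes of that list was called by edgeR, and their median log2 fold change was 0.04. The part of these cells and regions in the fall of Aqp9 was not tested.

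Aqp9 made up most of the aquaporin counts in both genotypes, with 85.9 ± 1.42% of the summed CPM of the 9 genes in WT and 84.3 ± 0.5% in Ocln-KO (SD, n = 3 each). The sum itself was 285 to 316 CPM in the WT libraries and 213 to 233 CPM in the Ocln-KO libraries. As the sum is mostly Aqp9, it repeats the difference of that gene.

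Aqp7, the glycerol channel of adipocytes that is also made in spermatids (chromosome 4, 41033074 to 41048237), was scarce, with 2.11, 1.88 and 1.83 CPM in WT replicates 1 to 3 against 1.22, 2.07 and 0.888 CPM in the Ocln-KO replicates. The genotypes overlapped, since Ocln-KO replicate 2 was as high as the WT libraries. The log2 fold change of Aqp7 was -0.48 with a 95% interval from -1.34 to 0.38 (edgeR adjusted p = 0.44), which includes no difference as well as a fall of over 2-fold. Leaving out Ocln-KO replicate 3 gave -0.24, and leaving out Ocln-KO replicate 2 gave -0.88. The summed CPM of 7 adipocyte genes was 8.05 to 14.8 in WT and 5.33, 3.11 and 0.622 in Ocln-KO replicates 1 to 3. That of 7 spermatid and sperm genes was 297 to 370 in WT and 408, 411 and 96.5 in the Ocln-KO replicates. All genes of both lists had counts, 6 adipocyte and 7 sperm genes were tested, and none was called by edgeR, with 3 and 0 of them at an unadjusted p under 0.05. Their part in the result was not tested.

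Aqp3, the basolateral glycerol and water channel of many epithelia (chromosome 4, 41092724 to 41098183), had 11, 0 and 0 counts in the WT libraries and 1, 1 and 0 in the Ocln-KO libraries. Its counts came almost wholly from WT replicate 1, and no difference between the genotypes could be examined at this depth, at which 3 counts equal 0.0802 to 0.0942 CPM. Basal cell genes were well detected in the same libraries, with a summed CPM over 6 genes of 235 to 247 in WT and 243 to 287 in Ocln-KO. Aqp3 and Aqp7 are neighbours, 44486 bases apart.

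Among the classical water channels, Aqp1, which is known from endothelium, red blood cells and the efferent ducts (chromosome 6, 55336299 to 55348555), was the most abundant. WT replicates 1 to 3 held 20.7, 19.7 and 22.1 CPM of it, and the Ocln-KO replicates 17.7, 14.5 and 22.6 CPM. Ocln-KO replicate 3 was the highest of all 6 libraries and the other Ocln-KO libraries were below WT, so that the genotypes overlapped. The means were 20.8 ± 1.2 and 18.2 ± 4.09 CPM (SD, n = 3 each). The log2 fold change was -0.19, with a 95% interval from -0.58 to 0.20 (edgeR adjusted p = 0.493). Leaving out Ocln-KO replicate 3 gave Aqp1 a log2 fold change of -0.38 (edgeR adjusted p = 0.136), and leaving out Ocln-KO replicate 2 gave -0.05. The summed CPM of 10 endothelial genes was 161 to 186 in WT and 136, 162 and 179 in the Ocln-KO replicates, and of its 9 tested genes 7 had a log2 fold change above 0 and 2 below, with a median of 0.20. The only one called was Egfl7, which fell (log2 fold change -1.01, edgeR adjusted p = 0.0128). That of 7 red blood cell genes was 22.2 to 49.7 in WT and 6.07 to 13.2 in Ocln-KO, with the 5 tested genes lower and 1 of them, Alas2, called. The summed CPM of 6 genes of efferent duct ciliated cells was 12.2 to 13.7 in the WT libraries and 17.5, 22.7 and 10.3 in Ocln-KO replicates 1 to 3. None of the 6 was called by edgeR, with 0 at an unadjusted p under 0.05. The part of these cell types in the level of Aqp1 was not tested.

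Aqp5, an apical water channel of secretory glands (chromosome 15, 99591028 to 99594829), was scarce and was the only one of the tested aquaporin genes with a higher mean in Ocln-KO. It had 53, 41 and 54 counts in the WT libraries, or 1.42, 1.20 and 1.45 CPM, and 89, 100 and 135 counts in the Ocln-KO libraries, or 2.77, 3.14 and 4 CPM. Each Ocln-KO library lay above each WT library. The mean of Aqp5 rose from 1.36 ± 0.136 CPM to 3.30 ± 0.627 CPM (SD, n = 3 each). The increase was 2.43-fold with a 95% interval from 1.57 to 3.77 (log2 fold change 1.28, standard error 0.27, edgeR adjusted p = 0.0343). Its log2 fold change ran from 1.12 to 1.40 over 13 alternatives. The edgeR adjusted p of Aqp5 was 0.0546 without Ocln-KO replicate 3, its highest library, 0.077 without Ocln-KO replicate 2, and 0.123, 0.1 and 0.109 without WT replicates 1, 2 and 3. Smooth muscle and macrophage genes also had higher sums in each Ocln-KO library than in each WT library, from 1600 to 2120 against 1180 to 1420 CPM and from 195 to 352 against 153 to 189 CPM. The same held for brain genes, at 30.8 to 32.1 against 23.7 to 28.9 CPM. Of 6 smooth muscle and 6 macrophage genes, 1 smooth muscle gene, Myh11, rose and no macrophage gene was called by edgeR, while 5 and 4 genes had an unadjusted p under 0.05. Of 7 tested brain genes, 1 was called by edgeR, Mbp, which rose. Basal cell sums overlapped, at 243 to 287 against 235 to 247 CPM. Of 6 basal cell genes 5 were higher and 1 lower, and Krt14 was called (log2 fold change 0.58, edgeR adjusted p = 0.0276). The part of these cell types in the rise of Aqp5 was not tested.

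Aqp2, Aqp5 and Aqp6 lie in a row on chromosome 15, with 6482 bases between Aqp2 and Aqp5 and 3638 bases between Aqp5 and Aqp6. Aqp6, an intracellular channel of kidney intercalated cells that was taken as a related gene (99598468 to 99605478), was found at 45.1, 37.0 and 41.6 CPM in the WT libraries and at 102, 83.5 and 82.6 CPM in those of Ocln-KO. Each Ocln-KO library was above each WT library. Aqp6 rose by 1.11 on the log2 scale (standard error 0.12, edgeR adjusted p = 0.00777) and was second in CPM to Aqp9 alone among the aquaporin genes of the table. Over 13 alternatives its log2 fold change lay between 1.01 and 1.20, and its edgeR adjusted p passed 0.05 without WT replicate 1, at 0.0518, and without WT replicate 3, at 0.0528. In both genotypes Aqp9 exceeded Aqp6, with a ratio of CPM from 5.63 to 7.47 in the WT libraries and from 1.93 to 2.23 in the Ocln-KO libraries.

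Aqp2, the vasopressin-regulated channel of the kidney collecting duct at the start of the same row (99579056 to 99584545), had 10, 3 and 8 counts in WT and 2, 3 and 6 counts in Ocln-KO. The ranges overlapped and the gene was not tested. RefSeq also places the long non-coding RNA gene Gm34765 across the span of Aqp2, Aqp5 and Aqp6. It had 19 to 58 counts in the WT libraries and 44 to 69 in the Ocln-KO libraries. For Aqp5 the counts were 41 to 54 and 89 to 135. As the strand setting of the counting is not stated, reads in any shared stretch could not be assigned to one gene. The part of Gm34765 in the counts of Aqp5 was not tested. Gm32714, across the span of Aqp9, had 191 to 227 counts in WT and 52 to 166 in Ocln-KO, few beside the counts of Aqp9. A830021F12Rik, across the span of Aqp4, had 0 counts in WT and 0 to 6 in Ocln-KO, as few as those of Aqp4 itself in Ocln-KO. In GENCODE M21, none of the exons of these 9 genes overlapped an exon of another gene.

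Aqp4 and Aqp8 were found mainly in WT. Aqp4, the channel of astrocyte end-feet (chromosome 18, 15389394 to 15410982), had 15, 11 and 23 counts in WT and 0, 4 and 4 counts in Ocln-KO. Aqp8, which passes water and hydrogen peroxide and is known from testis and gut (chromosome 7, 123462294 to 123468003), had 29, 15 and 21 counts in WT and 9, 4 and 0 in Ocln-KO. The genotypes did not overlap for either gene. Both were kept for the test only because the 3 WT libraries exceeded the count filter, which the Ocln-KO libraries did not, so a WT excess was built into their selection. Their log2 fold changes were -2.41 (95% interval from -4.30 to -0.51, edgeR adjusted p = 0.102) and -2.12 (95% interval from -4.12 to -0.11, edgeR adjusted p = 0.152), and neither passed. Without Ocln-KO replicate 3, in which it was at 0, the log2 fold change of Aqp8 was -1.54, and without Ocln-KO replicate 1 it was -3.19. As a label of the records names another organ in the extraction step, brain genes were summed too. They totalled 23.7 to 28.9 CPM in WT and 30.8 to 32.1 CPM in Ocln-KO, mostly from Syt1, at 10.5 and 10.7 CPM, and Mbp, a myelin gene that rose from 10.2 to 15.7 CPM (log2 fold change 0.62, edgeR adjusted p = 0.0315). The other 6 brain genes had means of at most 2.3 CPM in either genotype, and the neuronal gene Snap25 had 2 counts in each. The part of such cells in the levels of Aqp4 was not tested.

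Aqp11, an intracellular channel found in the endoplasmic reticulum (chromosome 7, 97726379 to 97738247), was at 17.6, 15.6 and 16.3 CPM in the WT libraries and at 13.3, 14.8 and 6.66 CPM in those of Ocln-KO. The genotypes did not overlap, and Ocln-KO replicate 3 was the lowest by far. The means were 16.5 ± 1.02 and 11.6 ± 4.35 CPM (SD, n = 3 each). The log2 fold change of -0.51 had a 95% interval from -1.14 to 0.12 and did not pass (edgeR adjusted p = 0.254). Without Ocln-KO replicate 3 it was -0.23 (edgeR adjusted p = 0.332). Many sums of cell type genes were also extreme in that library. The sperm genes had 96.5 CPM in it against 408 and 411 in the other Ocln-KO libraries. The distal epididymal genes had 5000 against 11300 and 11000 CPM. Both sums were lowest there, as were those of adipocyte, red blood cell, efferent duct ciliated cell and seminal vesicle genes. The macrophage sum was highest there, at 352 CPM. The part of any of these cell types in the value of Aqp11 was not tested.

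**Figure D2:**
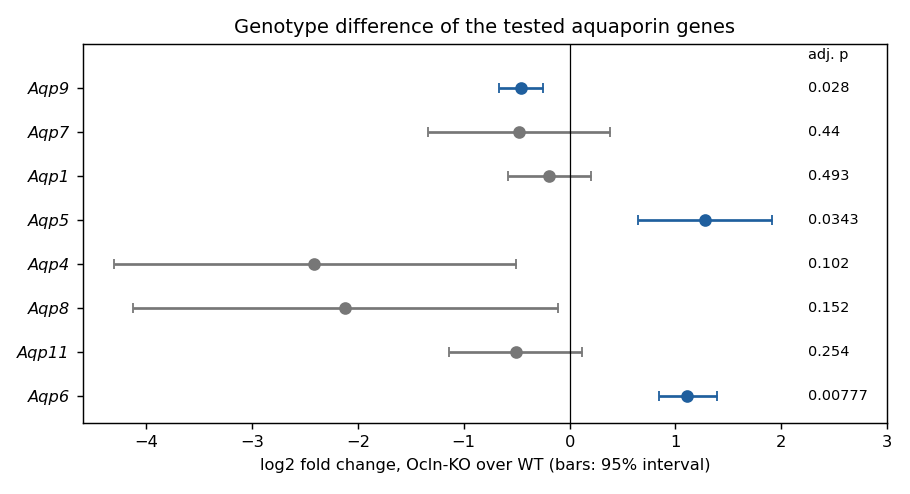
Log2 fold change of Ocln-KO over WT (horizontal axis) with 95% intervals for the 7 tested aquaporin genes and the related gene Aqp6, with the edgeR adjusted p at the right and called genes in blue. Aqp9 at -0.46 lies below 0 and Aqp5 at 1.28 and Aqp6 at 1.11 above it; the intervals of Aqp4 and Aqp8 are the widest.

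The levels of the 9 aquaporin genes were compared per kilobase of exon, as CPM divided by the summed length of the gene's GENCODE exons. In WT, Aqp9 had 76.7 ± 5.17 CPM per kilobase and Aqp1, next in order, 7.93 ± 0.456 (SD, n = 3 each), so that Aqp9 was 9.67 times the level of Aqp1. The related gene Aqp6 stood between them, at 17 CPM per kilobase in WT and 36.9 in Ocln-KO. Aqp11 followed with 4.42 ± 0.272, and Aqp7 and Aqp5 were level at 0.758 ± 0.0589 and 0.755 ± 0.0759 CPM per kilobase (SD, n = 3 each), with overlapping ranges. Aqp8 had 0.398 CPM per kilobase, and the ranges of Aqp2, Aqp4 and Aqp3, all below 0.2, overlapped from each to the next.

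In Ocln-KO the order of the 3 leading genes was kept, with 55.8 ± 2.86, 6.94 ± 1.56 and 3.11 ± 1.16 CPM per kilobase for Aqp9, Aqp1 and Aqp11 (SD, n = 3 each), and Aqp9 was 8.04 times Aqp1. Aqp5, at 1.84 ± 0.349 CPM per kilobase (SD, n = 3), stood above Aqp7, at 0.544 ± 0.239 (SD, n = 3), with no overlap. Its range reached up into that of Aqp11 because of Ocln-KO replicate 3, in which Aqp11 was at 1.78 and Aqp5 at 2.22 CPM per kilobase.

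**Figure D3:**
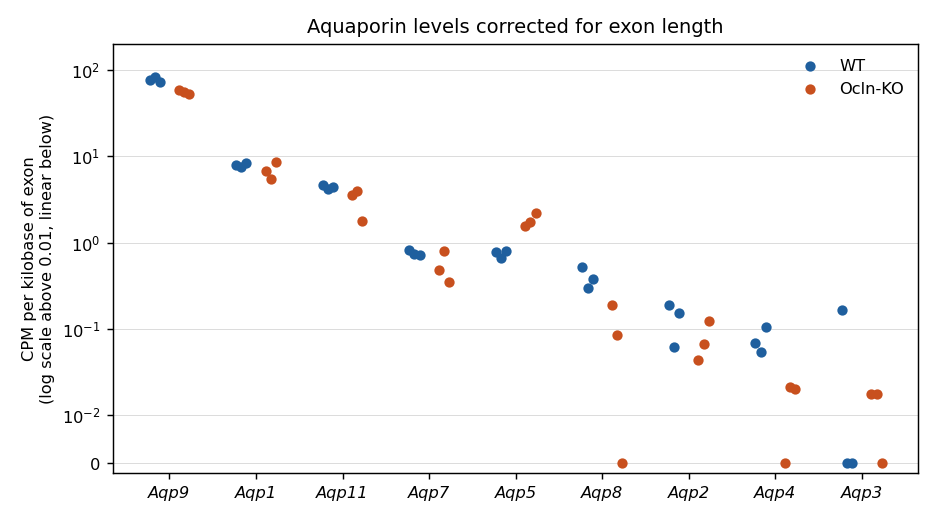
CPM per kilobase of exon (vertical axis, logarithmic above 0.01 and linear below) of the 9 aquaporin genes, ordered by their WT mean, with 3 WT libraries in blue and 3 Ocln-KO libraries in orange. Aqp9 stands above all others in both genotypes, and Aqp5 and Aqp7 are level in WT and apart in Ocln-KO.

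Tsen15 and Ahcy had the pattern over the 6 libraries that was closest to that of Aqp9. Likeness was the root mean square difference between log2 CPM values centred on each gene's mean, over 16357 genes, and it was 0.0223 and 0.0259 for these genes against a median of 0.331 over all. Ahcy, which encodes adenosylhomocysteinase, went from 24.8 CPM in WT to a mean of 17.9 CPM in Ocln-KO. The closest genes to Aqp1 were Pabpc4l, A130010J15Rik and Ctsf, with differences of 0.052, 0.0565 and 0.0599. Those to Aqp11 were Nhej1, Mpzl3 and Dusp15, with differences of 0.0535, 0.0814 and 0.0844. As these genes were picked for the smallest differences, values far below the median were built in. The differences are descriptions over 6 libraries that share genotype and scaling.

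Genes that work with the channels were described in 4 lists and set against all genes tested, of which 8.95% were called, 29.1% had an unadjusted p under 0.05 and the median log2 fold change was 0.01. Of 10 glycerol handling genes, all tested, 4 fell and none rose, 6 had an unadjusted p under 0.05, and the median log2 fold change was -0.33. Those that fell were Mgll, a monoacylglycerol lipase gene, from 483 ± 38.8 to 335 ± 28.8 CPM, Gk, the glycerol kinase gene, from 470 ± 17.4 to 293 ± 52 CPM, Gpd1, a glycerol-3-phosphate dehydrogenase gene, from 119 ± 6.62 to 66.7 ± 17.6 CPM, and Pnpla2, the adipose triglyceride lipase gene, from 63.6 ± 5.01 to 48.8 ± 1.97 CPM (SD, n = 3 each). In this order the log2 fold changes were -0.53, -0.68, -0.84 and -0.38 (edgeR adjusted p = 0.029, 0.0296, 0.0366 and 0.0433). Without Ocln-KO replicate 3 they were -0.49, -0.55, -0.64 and -0.37 (edgeR adjusted p = 0.0377, 0.0176, 0.00862 and 0.0723), and the call of Pnpla2 was lost. All 6 tested adipocyte genes had log2 fold changes below 0, around a median of -2.05. None of the 6 was called by edgeR, and 3 had an unadjusted p under 0.05. The 7 listed adipocyte genes summed to 8.05 to 14.8 CPM in the WT libraries and 0.622 to 5.33 CPM in the Ocln-KO libraries. The part of adipocytes in the fall of the 4 glycerol handling genes was not tested.

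Of 16 genes of the osmotic and volume response, all tested, 1 rose and 1 fell, 7 had an unadjusted p under 0.05, and the median log2 fold change was -0.18. Nfat5, the transcription factor of the response to high tonicity, rose from 280 ± 26.8 to 393 ± 8.22 CPM (SD, n = 3 each; log2 fold change 0.49, edgeR adjusted p = 0.0288). Lrrc8c, a subunit gene of the volume-regulated anion channel, fell from 71.4 ± 15.2 to 43.3 ± 3.52 CPM (SD, n = 3 each; log2 fold change -0.72, edgeR adjusted p = 0.0372). Slc5a3, Slc6a6, Slc6a12 and Akr1b3, which take up or make organic osmolytes and are known targets of Nfat5, were not called, with log2 fold changes of 0.22, -0.24, -0.14 and -0.22 (edgeR adjusted p = 0.247, 0.459, 0.673 and 0.337).

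Of 10 genes of the ion transport that water follows, all tested, 1 fell and none rose, 6 had an unadjusted p under 0.05, and the median log2 fold change was -0.32. Of 9 genes for scaffolds and trafficking of the channels, 8 were tested and none was called by edgeR, with 1 at an unadjusted p under 0.05 and a median log2 fold change of -0.01. Calls were lost throughout the table when single libraries were left out, falling over all genes from 1762 to 23, 230 and 56 without WT replicates 1, 2 and 3 and to 1657, 562 and 1692 without Ocln-KO replicates 1, 2 and 3. Of the 8 related genes that were called, Aqp6 included, 8 were lost without WT replicate 1, 7 without WT replicate 2, 7 without WT replicate 3, 7 without Ocln-KO replicate 2, and 2 each without Ocln-KO replicates 1 and 3, with no change of direction. The other aquaporin genes of the table besides Aqp6 were nearly absent, Mip with 0 counts and Aqp12 with 1 count in each genotype over its 3 libraries, and neither was tested.

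**Figure D4:**
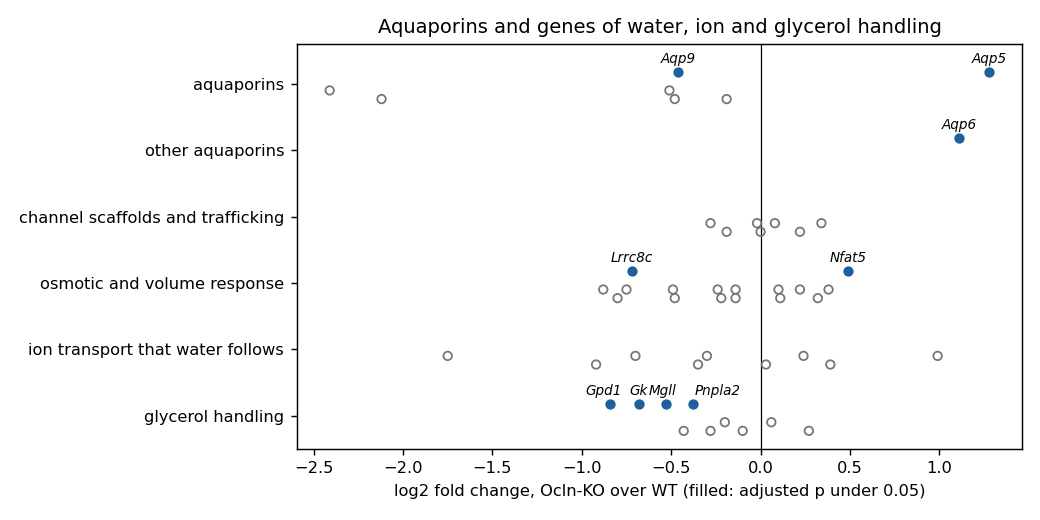
Log2 fold change of Ocln-KO over WT (horizontal axis) of the tested aquaporin genes and of each list of related genes (rows), filled and named where the edgeR adjusted p was under 0.05, with 2 related genes not drawn. Aqp5 and Aqp6 lie at 1.28 and 1.11, and the 4 called glycerol handling genes between -0.84 and -0.38.

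**Figure D5:**
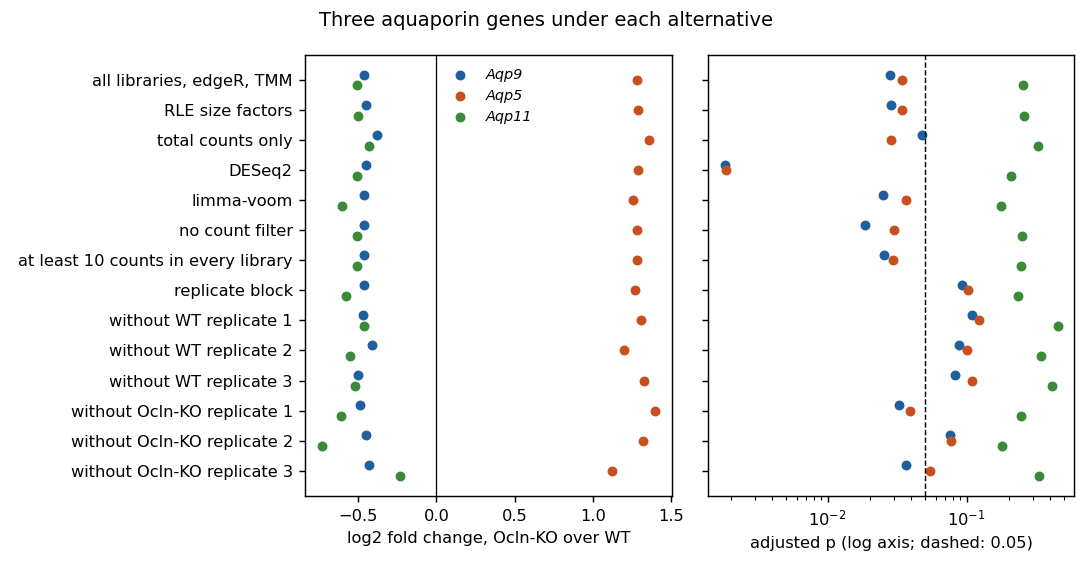
Log2 fold change (left) and adjusted p (right, log axis, dashed line at 0.05) of Aqp9, Aqp5 and Aqp11 with all libraries and under 13 alternatives (rows). The fold changes of Aqp9 and Aqp5 stay from -0.50 to -0.38 and from 1.12 to 1.40, while their adjusted p crosses 0.05 without any 1 of the WT libraries, without Ocln-KO replicate 2 and with a replicate block, as does that of Aqp5 without Ocln-KO replicate 3.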

How the data were processed

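RNA of whole epididymis from 3 WT and 3 Ocln-KO libraries was sequenced by the authors as paired ends after rRNA depletion and directional library preparation. The paper's methods speak both of separate extraction from 3 pairs of mice and of pooled RNA, so n counts libraries, and p-values measure the spread between them. The authors aligned reads to GRCm38 with HISAT2 2.0.4 (version from the submitters' processing notes) and counted them with HTSeq; counting mode, strand setting and treatment of multiply aligned reads are not given in the sources used here. The deposited values are raw counts per gene, without normalization.

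The main test was edgeR 4.0.16 in R 4.3.3 (filterByExpr, which kept 19691 genes, TMM factors, estimateDisp, glmQLFit and glmQLFTest), and p-values were adjusted by Benjamini-Hochberg across these genes. The CPM of 3 counts was taken as a guide to the limit of depth, which covers counting error only. Counts at or under 3 entered means, ranges and tests as they were. Exact permutation tests of 3 against 3 libraries cannot go below p = 0.1, so none is printed. Standard errors were derived from the F statistic, and 95% intervals from its degrees of freedom. Positions come from RefSeq GRCm38.p6 and exon lengths and box sequences from GENCODE M21. Replicates of a genotype differed by more than sampling noise (chi-square per degree of freedom from 15.1 to 124).

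The scripts were tested on simulated data in which 200 genes were changed 4-fold. edgeR recovered 87% of them and also called 22 unchanged genes. The values were 85.5% and 16 for limma-voom and 91.5% and 57 for DESeq2, so some calls of each tool can be false. Alternatives were RLE factors, total counts, DESeq2 1.42.0, limma-voom (limma 3.58.1), other count filters, a replicate block and each library left out. The named genes were the 9 aquaporin genes, Ocln, up to 4 called genes per related list, and the 3 genes most alike in pattern to each aquaporin gene of at least 10 CPM; the osmolyte genes, the cell type markers named, and the lncRNAs across aquaporin genes were named after their values were seen. The aquaporin genes and all lists were chosen with earlier results of these data known. Of the genes that this rule names, 2 are not reported here by name and are kept in the counts.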

Additional observations from a re-analysis of the deposited data

How the results depend on the processing

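No aquaporin gene changed direction under any of the 13 alternatives that gave it a value (12 for Aqp4 and Aqp8, which at least 10 counts in every library removed). RLE factors, total counts, DESeq2, limma-voom and both other count filters each left 1 aquaporin gene higher and 1 lower. The numbers of aquaporin genes called higher and lower each ran from 0 to 1 when a library was left out. Calls over all genes ran from 23 to 1692 in the same runs, against 1762 with all libraries. Without WT replicates 1, 2 or 3 or Ocln-KO replicate 2 the numbers of aquaporin genes higher and lower both became 0. In each of these runs 1 aquaporin gene was still higher at an unadjusted p under 0.05. In the same order 2, 2, 1 and 4 aquaporin genes were still lower at that threshold. Without Ocln-KO replicate 3 the number higher became 0 and 1 gene was lower.

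With the replicate number as a block, 0 aquaporin genes were higher and 0 lower, and 1 related gene was higher and 0 lower, while the calls over all genes fell from 1762 to 41. The edgeR adjusted p was then 0.0925 for Aqp9 and 0.102 for Aqp5. The labels give the numbers no meaning, while the paper's methods speak of 3 pairs of mice. The deviations of same-numbered libraries from their genotype means had r = -0.05, -0.03 and 0 for replicates 1, 2 and 3. With so few libraries these values cannot tell whether the libraries were paired.

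Of the related genes, 2 were called higher and 6 lower. DESeq2 put 12 lower and no count filter 11. Over all genes the calls lower also rose, from 992 to 1637 with DESeq2 and to 1216 with no count filter. With a library left out the number higher ran from 0 to 3 and the number lower from 0 to 7. Scaled by total counts, the median log2 fold change of all genes moved from 0.01 to 0.09. Of all calls, 674 were then lower and 1175 higher, against 992 and 770 with TMM factors. Genes of few counts, such as Aqp2 and Aqp3, were limited by depth.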
